A study of Mus musculus with 3 samples.

Results

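The 10 genes described here build the muscle side of the neuromuscular junction: the acetylcholine receptor subunits Chrna1, Chrnb1, Chrnd, Chrng and Chrne, the synapse organisers Agrn, Musk and Rapsn, and the esterase genes Ache and Colq. They were chosen by symbol, and each was read from its transcript row with the highest count summed over the libraries. All 10 were found among 46316 gene symbols, and 8 passed a filter of a mean of 1 or more CPM (counts of a gene scaled to a common library total), which left 13381 genes. Chrne and Ache did not pass.

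RNA was sequenced from C2C12, mouse myoblasts grown as an immortal line that forms myotubes, at day 4 of myogenic differentiation. The library called rescue here came from Drp1 knockout cells that transiently expressed FLAG-Drp1. The library called KO came from Drp1 knockout cells and the library called WT from wild-type cells. All 3 had been differentiated, and each group had 1 library. Drp1 is the GTPase that divides mitochondria, and its gene is Dnm1l. The series title concerns mitochondrial dynamics and muscle fibre type, and the question here is how junction genes differed with the Drp1 genotype. The sources used here do not give how the knockout was made or whether it was 1 clone. The labels name myoblasts as the cell type and no nerve cells.

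At the junction, acetylcholine from the motor nerve opens a pentameric channel built of alpha, beta and delta subunits together with a gamma subunit in fetal and denervated muscle or an epsilon subunit in adult muscle. Agrin from the nerve binds Lrp4, which activates the receptor kinase MuSK, and rapsyn then anchors the receptors in clusters. Acetylcholinesterase, held in the cleft by the collagen tail encoded by Colq, ends the signal. Uninnervated myotubes in culture are known to make the fetal receptor.

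The libraries held 13925296 gene counts in rescue, 13790417 in KO and 13894114 in WT. Dnm1l had 1481 counts in rescue, 1284 in KO and 1823 in WT, and KO was 1.40-fold below WT. All 10 markers of differentiated muscle passed the filter, with summed levels of 18462 CPM in rescue, 14788 CPM in KO and 14315 CPM in WT. Of 8 motor neuron markers, 7 were at 0 in rescue, 7 in KO and 6 in WT, among them Chat, which makes acetylcholine, and the whole list had 5, 1 and 20 counts in these libraries. Of 6 Schwann cell markers 2 passed the filter, and Erbb3, which muscle also expresses, gave 2114 of the 2140 counts in rescue, 1994 of 2025 in KO and 1770 of 1800 in WT. The 5 fibroblast markers summed to 1322 CPM in rescue, 1507 CPM in KO and 751 CPM in WT. Within them Col1a1 had 16217 counts in rescue, 18763 in KO and 5243 in WT, Dcn had 1792, 1787 and 5177, and Thy1 was at 0 in rescue and WT and Lum in KO. The 5 myoblast and cycling cell markers summed to 309.8 CPM in rescue, 323 CPM in KO and 412 CPM in WT. Between libraries all 10 muscle markers were higher in rescue than in KO, with a median log2 ratio of 0.48, and 7 of 10 were lower in KO than in WT, with a median of -0.31. Of these markers 3 passed 2-fold there, among them Ckm, with 3527 counts in rescue, 1424 in KO and 4406 in WT, and Actn2, with 89, 31 and 176. The part of these markers in the results below was not tested, and in bulk RNA fewer cells of a type and less RNA per cell cannot be told apart.

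Since each group had 1 library, replicates could not be compared and nothing was tested. Intervals are 95% counting intervals, which cover counting error only. A gene that passed the filter is called when its ratio is 2-fold or more. Only 8 of the 10 genes could thus be called, and Chrne and Ache could not. Shares given over all genes are of the 13381 genes that passed. Each pair of comparisons has 1 library in common.

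Junction genes did not move as a block. In KO against WT the collagen tail gene Colq was about an order of magnitude lower and agrin was more than 2-fold higher, while the receptor subunits ranged from level to moderately lower. Against KO, the rescue library had more Colq and slightly less Agrn, and rapsyn and the beta subunit stayed nearer KO than WT.

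**Figure D1:**
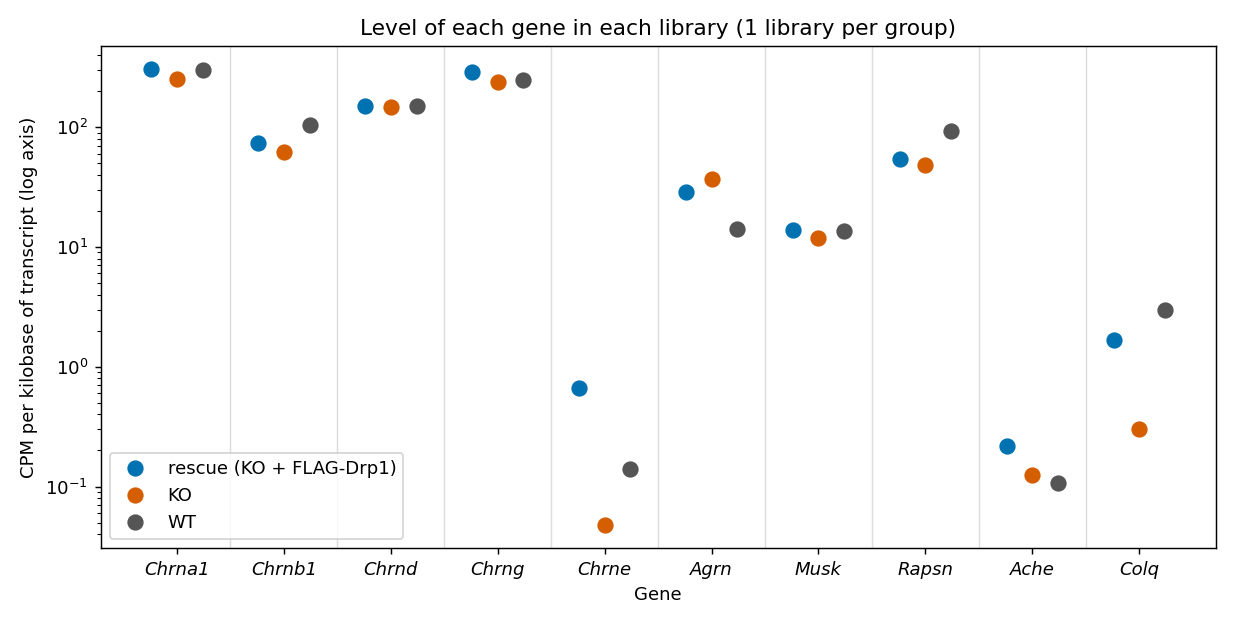
Level of each of the 10 genes in CPM per kilobase of transcript (log axis), with 1 point per library, ordered rescue, KO and WT within each gene. Chrna1 and Chrng are highest in every library, Chrne and Ache lie below 1 CPM per kilobase throughout, and Colq has its lowest point, 0.301, in KO.

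Per kilobase of transcript, the alpha subunit gene Chrna1, whose product carries most of the acetylcholine binding site, was the highest of the 10 genes, at 307 CPM per kilobase in rescue, 250.5 in KO and 298 in WT. The fetal gamma subunit gene Chrng was next, at 290 CPM per kilobase in rescue, 237 in KO and 249 in WT. Among the genes that passed the filter, from 1.62% to 1.79% had a higher level per kilobase than Chrna1, depending on the library. The delta subunit gene Chrnd followed at 151, 148 and 149 CPM per kilobase in rescue, KO and WT, and the beta subunit gene Chrnb1 at 73.1, 62.1 and 104. Rapsn stood at 53.8, 48.3 and 92.3 CPM per kilobase in these libraries. Below it in WT came Agrn at 14.1 and Musk at 13.5 CPM per kilobase, which did not differ beyond counting error. Colq, at 1.68 CPM per kilobase in rescue, 0.301 in KO and 3.0 in WT, was the lowest of the 8 junction genes past the filter.

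The promoters of the abundant subunits are shown because the MyoD family of muscle transcription factors binds the E-box CANNTG, which in muscle receptor promoters often has CAGCTG as its core. Chrne and Agrn are shown beside them as the nearly silent subunit and the gene called higher in KO. The windows are the 250 bases before the transcription start in RefSeq (GRCm38.p6, a build older than that of the counts), matched for 7 of the 10 genes, with Chrnd, Rapsn and Colq not matched. Capitals mark CANNTG and CCGGAA, the core of the N-box, which the ETS factor GABP binds at synaptic genes, searched on both strands.
Chrng (chr1:87205561-87205810, plus strand): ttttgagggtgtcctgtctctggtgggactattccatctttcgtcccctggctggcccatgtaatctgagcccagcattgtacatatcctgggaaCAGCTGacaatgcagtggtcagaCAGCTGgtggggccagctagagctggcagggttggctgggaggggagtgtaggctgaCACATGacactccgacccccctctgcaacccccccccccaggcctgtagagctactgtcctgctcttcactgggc
Chrna1 (chr2:73580339-73580588, minus strand): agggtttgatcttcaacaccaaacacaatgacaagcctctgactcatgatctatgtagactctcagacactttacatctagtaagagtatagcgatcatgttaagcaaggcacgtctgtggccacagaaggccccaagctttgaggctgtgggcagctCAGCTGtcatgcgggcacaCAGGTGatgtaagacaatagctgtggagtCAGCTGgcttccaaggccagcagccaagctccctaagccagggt
Chrne (chr11:70619195-70619444, minus strand): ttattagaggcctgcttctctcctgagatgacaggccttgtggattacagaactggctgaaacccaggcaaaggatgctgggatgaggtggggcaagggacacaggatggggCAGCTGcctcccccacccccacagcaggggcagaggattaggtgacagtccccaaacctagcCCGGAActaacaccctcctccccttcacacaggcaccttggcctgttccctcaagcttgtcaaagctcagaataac
Agrn (chr4:156197489-156197738, minus strand): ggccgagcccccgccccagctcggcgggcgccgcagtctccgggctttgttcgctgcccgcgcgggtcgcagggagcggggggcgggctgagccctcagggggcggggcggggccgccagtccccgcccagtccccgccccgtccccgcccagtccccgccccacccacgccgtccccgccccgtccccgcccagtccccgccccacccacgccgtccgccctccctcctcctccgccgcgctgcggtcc

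Counting the base before the start as -1, the Chrng window had CAGCTG beginning at -155 and -132 and a CACATG at -75. The Chrna1 window had CAGCTG at -92 and -44 and CAGGTG at -73. Of 32851 promoter windows of the same length, 66.2% held a CANNTG, 12.2% held 3 or more, 13.0% held CAGCTG and 1.26% held 2 or more CAGCTG. Musk had 3 matches of CANNTG, 1 of them CAGCTG, and Chrnb1 had 3, none of them CAGCTG. The Chrne window held 1 CAGCTG at -138 and 1 CCGGAA at -76, a motif found in 12% of windows and in no other window of these genes. The Agrn window shown had a GC content of 83.6% and no match, and the second Agrn window had 1 CANNTG. These matches of letters describe the windows only, and no binding was measured.

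All 4 subunits that passed the filter lay below 0 on the log2 scale in KO against WT, from near level to 1.68-fold, and none was called. Chrnd had 6173 counts in rescue, 6039 in KO and 6221 in WT, the steadiest of the 10 genes. Its log2 ratio was 0.03 in rescue against KO (interval -0.02 to 0.09) and -0.02 in KO against WT (interval -0.07 to 0.03), and the second of these turned to 0.03 when the trend of the ratios on transcript length was removed. Chrng, its neighbour on chromosome 1, had 7675 counts in rescue, 6288 in KO and 6705 in WT. For Chrng the log2 ratio of rescue to KO was 0.29 (interval 0.24 to 0.34), and in KO against WT its log2 ratio of -0.07 turned to 0.03 with the length trend removed. Chrna1 had 18243 counts in rescue, 14930 in KO and 18105 in WT. KO was the low library for this gene, with a log2 ratio to WT of -0.25 (interval -0.28 to -0.22). The log2 ratio of rescue to KO was 0.29 (interval 0.26 to 0.32). Against WT, the rescue library was level for Chrna1, with a log2 ratio of 0.04, and somewhat higher for Chrng, with 0.22 (interval 0.18 to 0.27).

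Chrnb1 stood apart from the other well-expressed subunits. This beta subunit gene, whose product contacts rapsyn, had 2164 counts in rescue, 1842 in KO and 3145 in WT. The KO level was 1.68-fold lower than that of WT (log2 ratio -0.75, interval -0.83 to -0.66). Rescue exceeded KO by 1.18-fold (log2 ratio 0.24, interval 0.14 to 0.33) but stood 1.43-fold lower than WT (log2 ratio -0.51, interval -0.59 to -0.43). Both Drp1 knockout libraries were thus low, and the value in rescue lay nearer KO than WT.

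Ratios within a library need no scaling between libraries. Relative to Chrna1 per kilobase, Chrnb1 was at 0.238 in rescue (interval 0.228 to 0.249) and 0.248 in KO (interval 0.236 to 0.260), against 0.349 in WT (interval 0.336 to 0.363). Chrng was at 0.946 in rescue (interval 0.921 to 0.972) and 0.947 in KO (interval 0.919 to 0.976), against 0.833 in WT (interval 0.810 to 0.857). For both subunits the intervals of rescue and KO overlapped each other and not that of WT. These ratios were not corrected for the trend on transcript length, and the overlap of rescue and KO depends on it. With the trend removed, the log2 ratio of rescue to KO was 0.34 for Chrna1, against 0.16 for Chrnb1 and 0.20 for Chrng. Chrnd was at 0.493 in rescue and 0.501 in WT, and KO was the highest at 0.589 (interval 0.572 to 0.607).

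**Figure D2:**
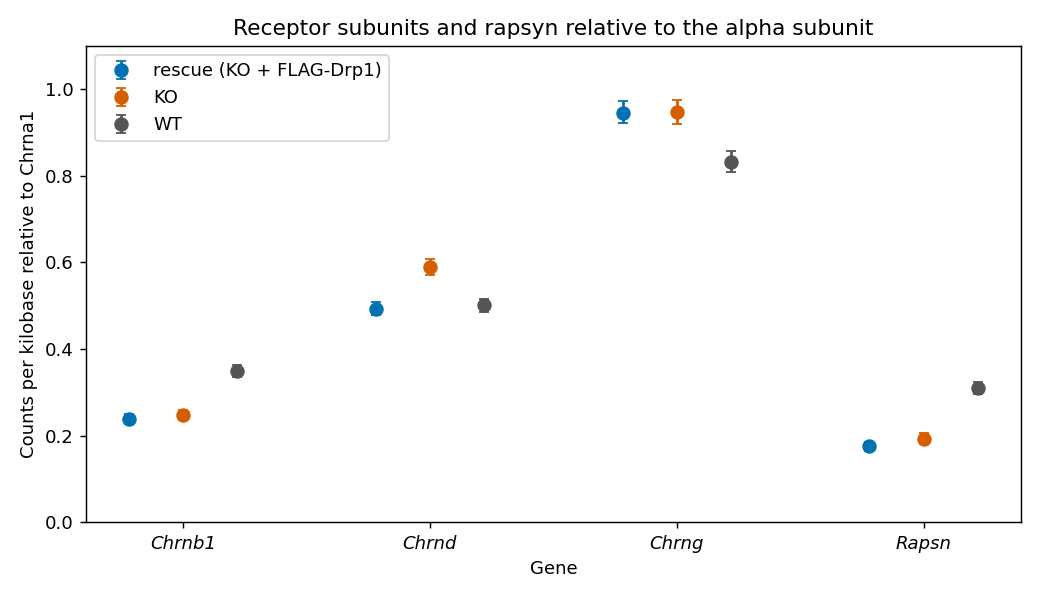
Counts per kilobase of Chrnb1, Chrnd, Chrng and Rapsn relative to Chrna1 within each library, with 95% counting intervals. Chrnb1 and Rapsn are lower relative to Chrna1 in rescue and KO than in WT, whereas Chrng is higher, at 0.946 and 0.947 against 0.833.

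Chrne, the epsilon subunit of the adult receptor, was close to the detection limit everywhere. It had 14 counts in rescue, 1 in KO and 3 in WT, so KO and WT lie at or under 3 counts, the limit that a count of 0 allows. The rescue library was 14-fold above KO, with an interval of 2.13 to 593, and 4.76-fold above WT, with an interval of 1.33 to 25.8. Per kilobase, Chrng exceeded Chrne 436-fold in rescue (interval 259.9 to 799), 5005-fold in KO (interval 898 to 197713) and 1779-fold in WT (interval 608 to 8628). The fetal subunit thus far exceeded the adult one in all 3 libraries, and the ratio was smallest in rescue, whose interval overlapped that of WT and not that of KO. The coding sequences of Chrng and Chrne had 67.7% identical bases in GENCODE M21, and their longest shared run was 15 bases. Among the subunit pairs the longest run was 24 bases, between Chrnb1 and Chrne, and identity ranged from 61.4% to 68.4%.

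Agrn was the 1 gene of the 10 called higher in KO against WT, where 5.35% of all genes were. Agrin is a large heparan sulfate proteoglycan, and muscle cells make it too, mostly in splice forms that cluster receptors weakly. It had 2988 counts in rescue, 3813 in KO and 1487 in WT. Both knockout libraries were high, and KO was the highest. KO exceeded WT by 2.61-fold (log2 ratio 1.38, interval 1.30 to 1.47), a ratio exceeded by 2.94% of genes. Agrn in rescue was lower than in KO by 1.27-fold (log2 ratio -0.35, interval -0.42 to -0.28), which became -0.20 with the length trend removed. It was higher in rescue than in WT by 2.05-fold (log2 ratio 1.03, interval 0.94 to 1.13). Agrn was also the 1 gene of the 10 called higher in rescue against WT, where the background was 4.59%, and its interval there reaches below 2-fold.

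Agrn had 17 transcript rows, whose log2 ratios in KO against WT ran from 1.33 to 2.05. In a row of 1346 bases, much shorter than the 7500 bases of the highest row, 91 counts were found in rescue, 152 in KO and 37 in WT, which were 3.05%, 3.99% and 2.49% of the highest row. A row of 5007 bases that is not annotated as mRNA reached 55.7% of the highest row in rescue (interval 53.9 to 57.5), 62.1% in KO (interval 60.6 to 63.7) and 56.6% in WT (interval 54.1 to 59.2). Of the other rows, those of 6765 bases or more had 97.2% or more of the highest count in every library, so nerve type and muscle type splice forms cannot be told apart from these counts.

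Musk, the receptor kinase that agrin activates through Lrp4, had 1356 counts in rescue, 1169 in KO and 1359 in WT. Rescue and WT were level, and KO was 1.14-fold lower than WT, a log2 ratio of -0.19 (interval -0.31 to -0.08). That ratio depended on the transcript rows, with a range from -0.19 to 0.03 over 8 rows. Per kilobase, Agrn was at 2.11 times Musk in rescue (interval 1.98 to 2.25) and 3.12 times in KO (interval 2.92 to 3.33), against 1.05 times in WT (interval 0.971 to 1.13). The balance of agrin to its kinase at the RNA level was thus different in each library.

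Rapsn, the scaffold that binds receptors from inside the cell, had 1200 counts in rescue, 1079 in KO and 2100 in WT. It was low in both knockout libraries. In KO it was 1.91-fold lower than in WT (log2 ratio -0.93, interval -1.04 to -0.83), just short of a 2-fold call, and 4.6% of genes had a lower ratio. In rescue it was 1.11-fold higher than in KO, at a log2 ratio of 0.16 (interval 0.04 to 0.28), which became 0.03 with the length trend removed, and 1.72-fold lower than in WT (log2 ratio -0.78, interval -0.88 to -0.68). Relative to Chrna1 per kilobase, Rapsn was at 0.175 in rescue (interval 0.165 to 0.186) and 0.193 in KO (interval 0.181 to 0.205), against 0.309 in WT (interval 0.296 to 0.324). Chrnb1 and Rapsn were both lower relative to Chrna1 in rescue and KO than in WT.

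**Figure D3:**
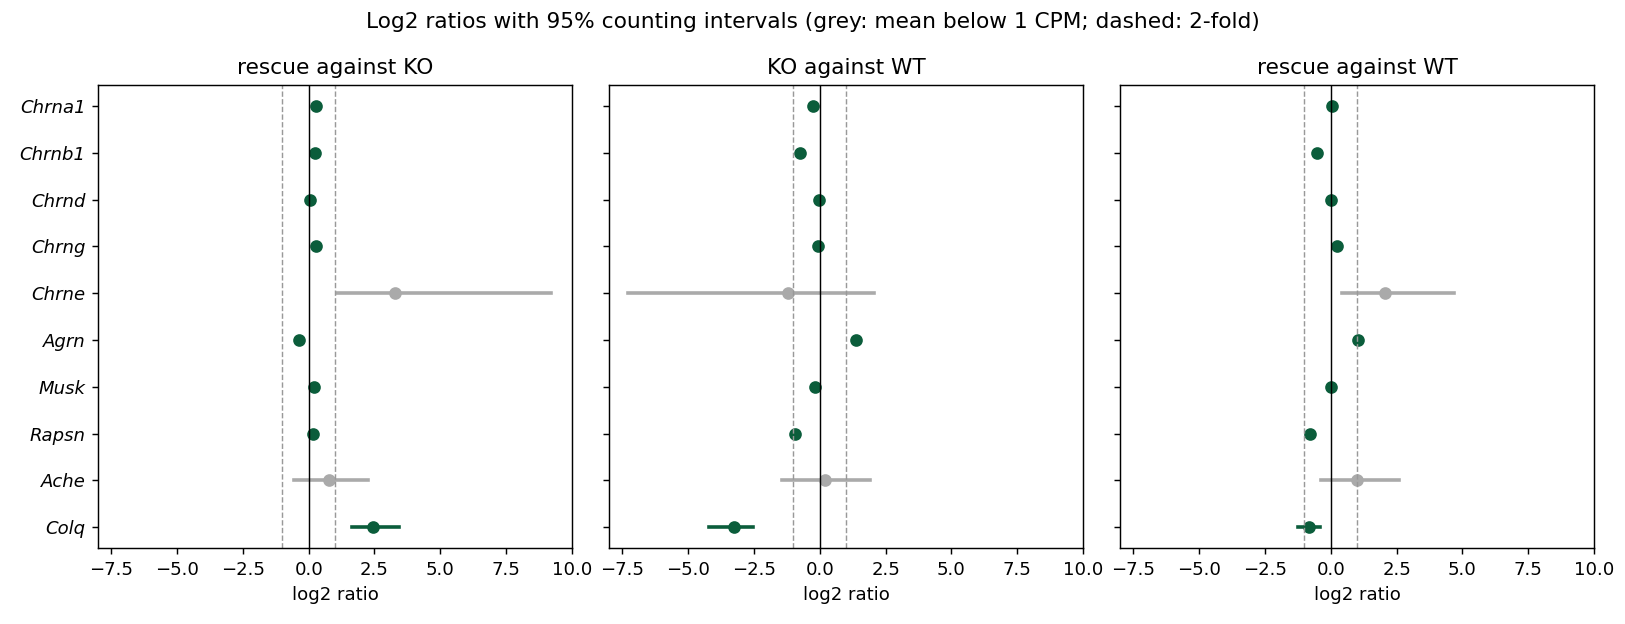
Log2 ratios of the 10 genes (points) with 95% counting intervals (bars) in rescue against KO, KO against WT and rescue against WT. Dashed lines mark 2-fold, and grey marks Chrne and Ache, which did not pass the filter. Colq lies beyond 2-fold at -3.27 in KO against WT and at 2.44 in rescue against KO, and Agrn lies at 1.38 in KO against WT.

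Among the 8 genes that passed the filter, Colq had the largest ratio both between KO and WT and between rescue and KO. Its product is a triple-helical tail that gathers catalytic subunits through a proline-rich segment. The tail ties them to perlecan in the basal lamina and to the receptor kinase MuSK. The coding sequence (GENCODE M21, chromosome 14) has 457 codons, in which 59 consecutive triplets begin with a glycine codon, the collagen repeat. Its window of 20 codons with the most proline codons spans codons 54 to 73 and holds 9 of them, against a median of 3 over all windows, and is shown because this segment binds the esterase. Capitals mark proline codons.
Colq codons 54 to 73: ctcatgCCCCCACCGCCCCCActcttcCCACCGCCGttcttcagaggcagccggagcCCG

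Colq had 78 counts in rescue, 14 in KO and 142 in WT. KO was the low library and rescue lay between the others. Colq in KO was 9.97-fold lower than in WT (log2 ratio -3.27, interval -4.22 to -2.52), where 4.07% of all genes were called lower and 0.426% had a lower ratio than Colq. Colq in rescue exceeded KO by 5.58-fold (log2 ratio 2.44, interval 1.65 to 3.42), where 1.30% of all genes were called higher and 0.575% lower, and Colq was the 1 gene of the 10 called in either direction. In rescue Colq was 1.79-fold lower than in WT (log2 ratio -0.83, interval -1.25 to -0.43), and none of the 10 was called lower in that comparison, against 3.06% of all genes. Over the 6 Colq rows the log2 ratio ran from -3.60 to -3.26 in KO against WT and from 2.44 to 3.21 in rescue against KO. Of the 10 muscle markers 4 had the same order of libraries, with KO lowest and WT highest (Ckm, Des, Mymx and Actn2). Another 3 were lowest in KO and highest in rescue (Tnnt1, Tnnt3 and Mymk), and the remaining 3 were lowest in WT (Myog, Acta1 and Myh3). Their part in the Colq values was not tested.

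Genes with a pattern like that of Colq were ranked by the distance between pairs of log2 ratios, KO against WT and rescue against KO, over 9255 genes with at least 200 counts in their highest library. This likeness rests on 3 libraries and is a description. The nearest was Myh1, a fast myosin heavy chain, at a distance of 0.14, with 2327 counts in rescue, 441 in KO and 3941 in WT. Nrxn3, a neurexin of synapses, followed at 0.54, and after it came Myh8, Myh4 and Pgm5 at 0.78, 0.80 and 1.04. Colq itself, with 142 counts in WT, its highest library, lay below the 200 counts asked of the genes searched.

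Ache, the catalytic subunit that Colq anchors, was barely detected. It had 14 counts in rescue, 8 in KO and 7 in WT. The intervals of its log2 ratios included 0 in all 3 comparisons, from -0.54 to 2.27 in rescue against KO, from -1.44 to 1.91 in KO against WT and from -0.38 to 2.58 in rescue against WT, so no difference was detectable at this depth. Per kilobase, Colq was at 7.64 times Ache in rescue (interval 4.29 to 14.6), 2.40 times in KO (interval 0.939 to 6.60) and 27.8 times in WT (interval 13.1 to 70.4). The intervals of KO and WT did not overlap. The size of these ratios depends on the Ache row used, which has 4626 bases and is not annotated as mRNA. An mRNA row of 2209 bases had 14 counts in rescue, 7 in KO and 6 in WT, and with it each ratio would be lower. In GENCODE M21, Ache shared 98 exonic bases with Gm42456 and Rapsn 4 with Gm13778 on the opposite strand, and Colq shared 199 with Gm49387 on its own strand. The counts of these 3 genes are uncertain to that extent, since shared stretches could give reads to either gene and the sources used here give no strand setting.

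For the 8 genes that passed the filter, the median log2 ratio was 0.23 in rescue against KO, -0.22 in KO against WT and 0.02 between rescue and WT, beside medians of 0.00, 0.00 and 0.01 over all genes tested. For rescue against KO 7 of the 8 lay above 0, Agrn being the exception, and in KO against WT 7 of the 8 lay below 0, again except Agrn. With the length trend removed the second count loses Chrnd and Chrng. In these values the knockout library is shared by both comparisons. Over all 13381 genes tested, 6731 lay above 0 in rescue against KO and 6679 below 0 in KO against WT.

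Other genes of the junction were taken from 7 lists with 92 genes, of which 73 passed the filter. In KO against WT 6 of the 73 (8.22%) were called higher, where the share over all genes was 5.35%, and 3 (4.11%) lower, where it was 4.07%. For rescue against KO 1 (1.37%) was called higher, beside 1.30% of all genes, and none lower, beside 0.575%. For rescue against WT 6 (8.22%) were higher, beside 4.59%, and 2 (2.74%) lower, beside 3.06%. The shares called lower, and that called higher in rescue against KO, were thus near those over all genes. The shares called higher than WT were above those over all genes but rest on 6 genes each. The 6 include Chrnb2 in KO against WT and Lama4, with 27 counts in rescue and 12 in WT, in rescue against WT. Both genes lay below 1 CPM in WT and passed the filter only through the other libraries. With the sum over transcript rows, 5 were called higher in each of these comparisons. Among the 6 higher in KO, 3 had a counting interval wholly beyond 2-fold. Of the 6 higher in the rescue library, 1 did. Whether these shares exceed those over all genes was not tested. Of the 73 genes 44 lay above 0 in KO against WT, with a median of 0.11. In rescue against KO 47 lay below 0, with a median of -0.06. Over all 13381 genes tested, 6702 lay above 0 in KO against WT and 6650 below 0 in rescue against KO.

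Of 22 MuSK signalling genes 21 passed the filter. In rescue against KO 17 of them lay below 0 and 4 above, with a median of -0.06. In KO against WT 13 lay above and 8 below, with a median of 0.09. Over all genes tested, 6650 lay below 0 in the first comparison and 6702 above 0 in the second. Some of the 17 were level within counting error, among them Dok7 at -0.06 (interval -0.20 to 0.08). The counts of directions were not redone with the length trend removed. Pdzrn3, a ubiquitin ligase that promotes MuSK turnover, was the 1 called, at 2.45-fold higher in KO than in WT, with 1201 counts in rescue, 1434 in KO and 596 in WT. Lrp4, the agrin receptor, had 3912 counts in rescue, 4834 in KO and 3849 in WT, and so shared the direction of Agrn at 1.28-fold above WT in KO. Dok7, the adaptor that activates MuSK from inside, was 1.30-fold above WT in KO, and Dnaja3 1.49-fold. Abl1 and Abl2, kinases that act with MuSK, were 1.23-fold and 1.24-fold higher in KO. The rows of Lrp4, Abl1 and Abl2 are long, at 8028, 7306 and 10714 bases, and these ratios include the length trend. That trend was 0.14 on the log2 scale in KO against WT at the 7172 bases of Musk. With the trend removed the list medians were -0.04 in rescue against KO and 0.04 in KO against WT. Hsp90aa1, a chaperone, went the other way at 1.29-fold lower in KO, with 10940 counts in rescue, 10852 in KO and 14243 in WT.

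Neuregulin and ETS genes had medians of -0.12 in rescue against KO and 0.17 in KO against WT, with 8 of 9 past the filter. Etv5, an ETS factor of synaptic transcription, had 350 counts in rescue, 420 in KO and 141 in WT, and was 3.03-fold higher in KO. Nrg1, a neuregulin, had 199 counts in rescue, 230 in KO and 98 in WT. Both genes were high in the 2 knockout libraries. Gabpa and Gabpb1, which make the GABP factor, had KO against WT log2 ratios of -0.03 and 0.26, and Erbb3, a neuregulin receptor, had 0.20.

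Among scaffold and basal lamina genes 19 of 21 passed the filter, with medians of -0.21 in rescue against KO and 0.12 in KO against WT, which became 0.03 and -0.09 with the length trend removed. Scn4a, the muscle sodium channel concentrated at the junction, had 883 counts in rescue, 893 in KO and 431 in WT, and its anchor Ank3 had 810, 990 and 512. Ank2, a further ankyrin, was 2.41-fold higher in KO than in WT, with 501 counts in rescue, 693 in KO and 293 in WT. Dmd, the gene of dystrophin, was the 1 called lower in KO, with 53 counts in rescue, 14 in KO and 42 in WT, and the 1 called higher in rescue against KO, at a log2 ratio of 1.89. The basal lamina genes Lama5 and Nid2 were 1.67-fold and 1.83-fold higher in KO than in WT, below the 2-fold mark. Hspg2 makes perlecan, the anchor of the Colq tail, and had 13794 counts in rescue, 19359 in KO and 18265 in WT.

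**Figure D4:**
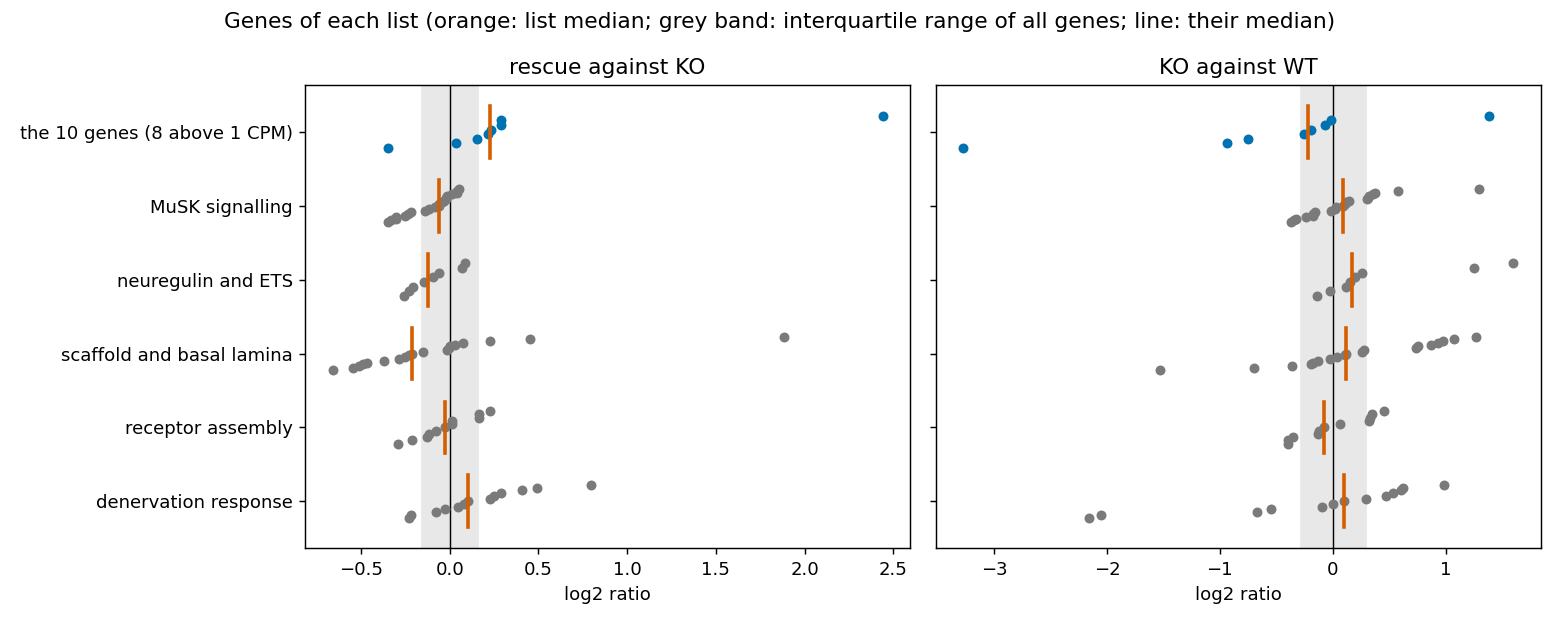
Log2 ratios of single genes (points) in rescue against KO and KO against WT. Shown are the genes that passed the filter, 8 of the 10 described here and those of 5 lists of other junction genes. Orange bars are list medians and the grey band is the interquartile range of all genes. The list medians lie between -0.22 and 0.23, and single genes such as Colq, Dmd, Mef2c and Hdac9 lie far from them.

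Of 13 receptor assembly and glycosylation genes 11 passed the filter, with medians of -0.03 in rescue against KO and -0.08 in KO against WT. None of the 11 was called, which with so few genes is near the shares called over all genes given above. Hspa5, the chaperone BiP, was 1.37-fold higher in KO than in WT, and Rer1, which retains unassembled subunits, was 1.28-fold lower. Ufsp1 had 46 counts in rescue, 41 in KO and 33 in WT. Of 11 neuronal nicotinic subunits 1 passed the filter, Chrnb2, with 21 counts in rescue, 32 in KO and 11 in WT.

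Genes known to respond to denervation went both ways, with 13 of 14 past the filter and medians of 0.10 in rescue against KO and in KO against WT. Myog, the myogenic factor that drives receptor genes in denervated muscle, had 17277 counts in rescue, 16122 in KO and 11853 in WT and so was 1.38-fold higher in KO. Mef2c, its partner factor, had 530 counts in rescue, 305 in KO and 1289 in WT, and Hdac9, a repressor that responds to muscle activity, had 55, 39 and 179. Mef2c and Hdac9 were 4.15-fold and 4.51-fold lower in KO. Gadd45a, which denervation induces, had 4777 counts in rescue, 4523 in KO and 2328 in WT, a 1.98-fold difference between KO and WT. Trim63, an atrophy ubiquitin ligase, was level between KO and WT and 0.41 higher on the log2 scale in rescue.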

How the data were processed

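The deposited files held, per the file headers, a raw count, a length and a gene symbol for 139023 transcript rows in each of 3 libraries. TRIzol extraction and an MGI sequencing kit are named in the labels' protocols. The submitters' processing notes list featureCounts 2.0.0, HISAT2 2.2.1 and cutadapt 1.9.1, and the build GRCm39, without settings. The counts of the rows of a gene overlap, so 1 row per gene was used, the first where rows tied. Scaling used edgeR 4.0.16 TMM factors. The log2 ratio was taken after adding 0.5 to each count. Its exact conditional (Clopper-Pearson) 95% interval, computed in scipy 1.17.1, and all folds used the counts without that addition. At low counts a fold can thus differ from its log2 ratio, as for Chrne. Simulated counts, used to check the code, held counting error only and cannot show how replicates would differ. Shares of rows have exact binomial intervals. No molecular identifiers are named, so the intervals cover counting error only. The length trend was a lowess curve over genes with at least 100 counts in 1 library.

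The members and lists were chosen with earlier results of these data known. The named genes are the 10 members and, per list, up to 4 genes by size of ratio in KO against WT and up to 4 in rescue against KO, besides markers, Dnm1l and the 5 genes most like Colq. Others are said to be chosen after their values were seen, and so were the 3 genes that overlap a member. Lama4, the sixth gene called higher in rescue against WT besides Etv5, Gadd45a, Nrg1, Pdzrn3 and Scn4a, is one of these.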

Additional observations from a re-analysis of the deposited data

How the results depend on the processing

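The alternatives were DESeq2 1.42.0 size factors, scaling to totals, the sum or the median over transcript rows, removal of the length trend, adding 1 to each count and no filter. Under these, 89 counts and ratios that answer a comparison stayed within their limits and 7 moved. Of the 7, 6 came from dropping the filter, which admits genes with few counts. Among the 10 genes, 2 were then higher in rescue against KO and 2 lower in KO against WT (Chrne joining Colq in each, with 1 count in KO against 3 in WT), and 2 were higher in rescue against WT (Chrne joining Agrn). Among other junction genes, 1 was then lower in rescue against KO, 7 in KO against WT and 6 for rescue against WT. With the length trend removed, 2 of these were higher in rescue against KO in place of 1. Small ratios changed sign for Chrnd in rescue against WT (-0.00 with DESeq2 size factors, -0.01 with totals) and Musk in rescue against WT (-0.01 with totals). In KO against WT the log2 ratio ran from 1.24 to 1.39 for Agrn, from -3.34 to -3.23 for Colq and from -0.95 to -0.81 for Rapsn, and for rescue against WT that of Agrn ran from 1.0 to 1.04. Of the remaining values, which are log2 ratios of single genes, list medians and subunit ratios, 323 stayed and 16 moved. Dropping the filter cannot change the ratio of a single gene, so those values stayed by construction. A single-gene ratio was counted as stayed if it lay within its own counting interval, which is wide for Chrne and Ache. Musk ran from -0.33 to -0.05 in KO against WT and from 0.11 to 0.36 in rescue against KO, where Agrn ran from -0.37 to -0.20. Depth limits Chrne and Ache most. No paired analysis was possible because each group had 1 library.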

Other observations

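Some genes below the filter, chosen after their values were seen, are listed here by their counts only, and no difference was tested. Bche, the other cholinesterase, had 0 counts in rescue, 0 in KO and 7 in WT, and Prima1, the membrane anchor of the esterase in nerve, had 0 in each. Prss12, neurotrypsin, a protease that cleaves agrin, had 6 counts in rescue, 14 in KO and 4 in WT. Tiam1, an activator of Rac, had 0 counts in rescue, 0 in KO and 10 in WT. Syt1, a calcium sensor of vesicle release counted here as a neuron marker, had 5 counts in rescue, 1 in KO and 18 in WT.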
